A study of Mus musculus with 4 samples.

Results

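The 36 genes described here are regulators of the hair follicle outside the keratin family, chosen by name as transcription factors of the hair shaft and its sheaths, genes of the stem cell bulge, and members of the Hedgehog, BMP, FGF and ectodysplasin pathways, with 3 proteins and enzymes of the shaft. All 36 are named by at least 1 probe set that matches a single gene on the array, among 17097 such genes in all. They were measured in total RNA from the dorsal skin of male C3H mice, 8 weeks old at the start, that were shaved and treated topically every day for 30 days. Milli-Q water was the vehicle for arrays Control 1 and Control 2, and the skin of arrays TCQA 1 and TCQA 2 was given 1% TCQA, a caffeoylquinic acid that carries caffeoyl groups on quinic acid. The study asked how TCQA affects hair pigmentation, which follows the growth phase of the follicle. The methods place the shaved follicles at rest (telogen) before treatment and state that shaving was used to start growth (anagen), in vehicle and TCQA skin alike. Pooling of mice on an array is not given in the sources used here, and p-values therefore measure array-to-array spread, possibly a technical one.

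The hair follicle passes through growth, regression and rest. Stem cells in the bulge, marked in mice by Cd34, Lhx2, Sox9, Nfatc1, Tbx1 and Lgr5, are held at rest by BMP signals and by Fgf18, and enter growth when Wnt, Hedgehog and FGF signals rise. In the growing bulb, Shh from the matrix acts through Ptch1, Smo and the Gli factors, while Foxn1, Hoxc13, Msx2, Dlx3 and Lef1 drive the genes of the hair shaft and Gata3 those of the inner root sheath. Fgf5 ends growth, and Eda with its receptor Edar sets up follicles in the embryo. Lef1 is also the DNA-binding partner of β-catenin, the protein on which the study centred. In whole skin, fewer cells of a type and less RNA per cell cannot be told apart.

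Where a group has 2 values, array 1 comes first. Differences and fold changes are TCQA minus control on the log2 scale. Values are the deposited log2 signals made with RMA, on which 1 unit is a 2-fold change, and signals of different probe sets were not compared as levels of their genes. Control 1 stood apart from the other 3 arrays before any comparison. The median log2 signal of 8 skeletal muscle markers was 10.51 on Control 1, with 1.98 to 2.80 elsewhere, that of 7 measured ribosomal protein genes was 9.52 against 2.79 to 3.31, and that of 6 markers of epidermal keratinocytes was 8.08 against 2.85 to 3.13. For 18 bacterial and phage hybridization spikes, which are added to every array in fixed amounts, the order was the opposite, with a median of 6.71 and 10.42 on the vehicle arrays against 10.41 and 10.78 under TCQA. The difference between the 3′ and the 5′ control probe sets of Actb, which is larger where RNA is shorter, was 2.53 on Control 1, with 0.78 to 1.01 elsewhere. For Gapdh it was between 1.67 and 2.18 on all 4 arrays. The Actb 3′ probe set had 9.37 on Control 1 and 3.44 to 3.83 elsewhere, and the 5′ one had 6.84 and 2.60 to 2.93. The Actb gaps were thus taken at unlike signals and do not rank the arrays by RNA length. Across probe sets Control 1 correlated with the other arrays at r between 0.412 and 0.413, and those correlated with each other at r between 0.884 and 0.956. Whether these differences between arrays set the members' values was not tested. The members' differences are given with and without Control 1. On the other 3 arrays even the ribosomal protein genes, which every cell type makes, had low signals. Their medians there, 2.79 to 3.31, stood beside 1.61 to 2.08 for a nonspecific control probe set with 17 G or C bases, which matches no mouse transcript. Differences without Control 1 therefore compare arrays on which such genes were dim.

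**Figure D1:**
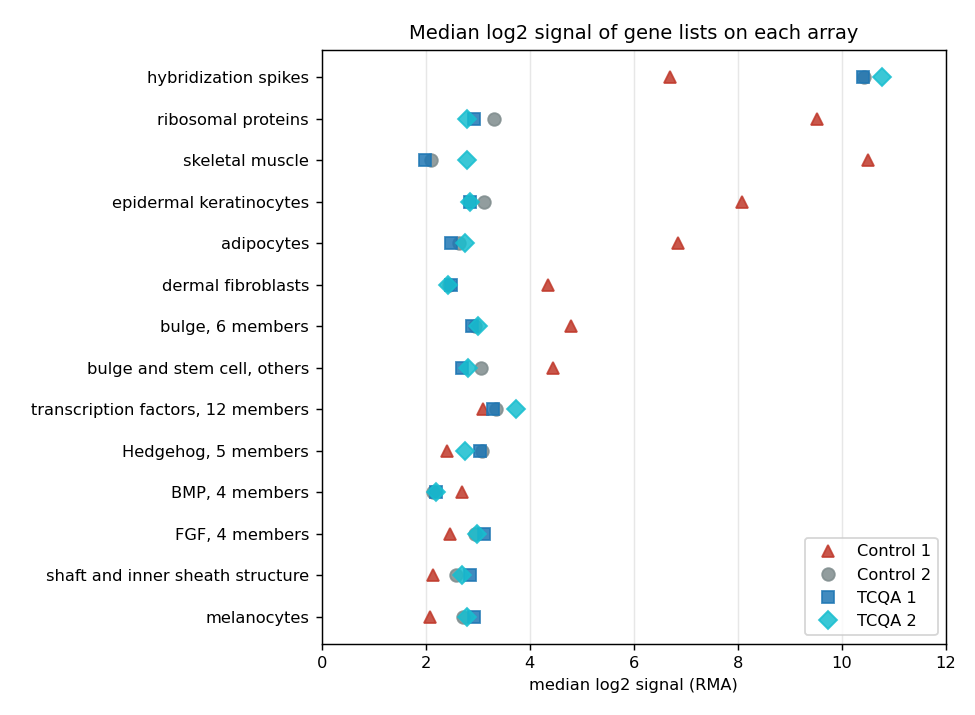
Median log2 signal (RMA, x axis) of hybridization spikes, of marker lists and of groups of hair follicle genes, with 1 symbol per array. Control 1 is above the other 3 arrays for ribosomal proteins (9.52), skeletal muscle (10.51), keratinocytes (8.08) and the 6 bulge members (4.79), and below them for the spikes (6.71), the Hedgehog and FGF members and the genes of shaft and inner sheath structure.

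None of the 36 genes passed an adjusted p of 0.05 in limma, where 0% of all genes did. Their adjusted p-values in limma lay between 0.92 and 0.98, with 0 of them at an unadjusted p under 0.05, a level that 0.357% of all genes reached. An analysis of variance without moderation, the test that the methods name, gave 0 at an adjusted p of 0.05 and 1 at an unadjusted p under 0.05 (Smo), against 1.43% of all genes. None met the thresholds of the study, a 2-fold change with an unadjusted p of at most 0.05, with p from limma or from that analysis of variance. With p from limma, 0.14% of all genes met them on the higher side and 0.17% on the lower side. With 2 arrays a group, the smallest two-sided p of an exact permutation test is 0.333. Without Control 2, so with Control 1 as the lone vehicle array, 11 members passed an adjusted p of 0.05 in limma, Foxn1, Msx2 and Padi3 on the higher side and Gata3, Vdr, Lhx2, Cd34, Tbx1, Bmp2, Fgf18 and Selenbp1 on the lower side. These were 8.33% of the members higher and 22.2% lower, where 8.4% of all genes passed higher and 20.3% lower, shares near those of the members. A gene that did not pass is not shown to be unchanged. Standard errors of the members' log2 fold changes ran from 0.32 to 1.49 with all arrays.

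Both TCQA arrays lay above both control arrays for 9 of the 36 genes, or 25% of them, where 16% of all genes did. These were Foxn1, Msx1, Msx2, Dlx3, Shh, Gli2, Bmpr1a, Edar and Padi3. On each of the 9, Control 1 was the lowest array. For 8 of them, all but Dlx3, the signal stepped up from Control 1 through Control 2 and TCQA 1 to TCQA 2, an order held by 22.2% of the 36 genes and 8.94% of all genes. The 23 nonspecific control probe sets of the array, which match no mouse transcript, all had that order too, and their part in the 8 genes was not tested. Both TCQA arrays lay below both control arrays for 2 genes, Smo and Lgr5, or 5.56%, where 13.6% of all genes did. The genes were selected with earlier results of these arrays known, so the shares describe them and carry no test.

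**Figure D2:**
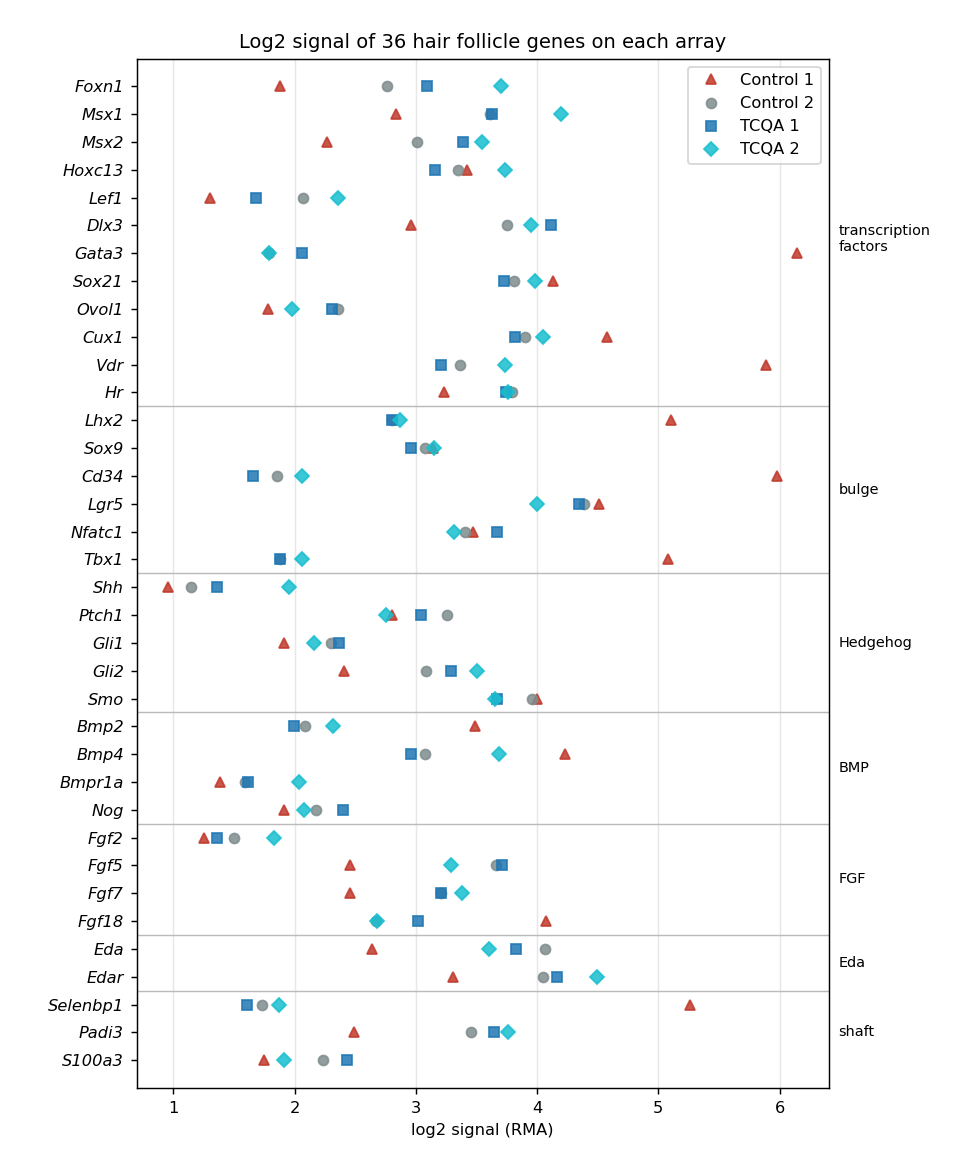
Log2 signal (RMA, x axis) of the 36 genes, taken for each gene from its brightest probe set. Each symbol is 1 array and lines separate the roles named at the right. Control 1 lies apart on the high side for Gata3 (6.15), Cd34 (5.98), Vdr (5.88), Selenbp1 (5.26), Lhx2 (5.10) and Tbx1 (5.08), and it is the lowest array for 19 of the 36 genes.

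Among the transcription factors of shaft and epithelium, Foxn1 had the largest positive difference. Foxn1, the nude gene, is required for hair shafts to form, and it had log2 signals of 1.88 and 2.76 on the vehicle arrays against 3.09 and 3.70 under TCQA. The 4 arrays did not overlap between the groups, with means of 3.40 ± 0.43 under TCQA and 2.32 ± 0.63 under vehicle (SD, n = 2 each). Its log2 fold change (TCQA minus control) was 1.08 ± 0.48 (SE; limma, adjusted p = 0.92) and was 0.64 (standard error 0.36) without Control 1. The other Foxn1 probe set ran in the same order, from 2.12 on Control 1 through 2.67 on Control 2 and 2.78 on TCQA 1 to 3.18 on TCQA 2, at a difference of 0.58, or 0.31 without Control 1.

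Msx1, Msx2 and Dlx3, homeobox factors of follicle epithelium and matrix, had the same order of groups. Msx2 had log2 signals of 2.27 and 3.01 on the vehicle arrays against 3.39 and 3.55 under TCQA, for a difference of 0.83 ± 0.41 (SE; limma, adjusted p = 0.92). Msx1 had 2.84 and 3.61 on the vehicle arrays against 3.63 and 4.20 under TCQA. Dlx3, a regulator of hair differentiation, had 2.96 and 3.75 on the vehicle arrays against 4.12 and 3.95 under TCQA. The log2 fold change with all arrays was 0.69 for Msx1 and 0.68 for Dlx3. In each of the 3 genes Control 1 was lowest by more than the distance of Control 2 to the nearer TCQA array, and for Msx1 that distance was 0.02. Without Control 1 the log2 fold changes were 0.46 for Msx2, 0.30 for Msx1 and 0.28 for Dlx3, with standard errors of 0.29, 0.35 and 0.29. The second probe set of each gene had a positive log2 fold change too, of 0.46 for Msx2, 0.39 for Msx1 and 1.00 for Dlx3, which were 0.41, 0.15 and 0.60 without Control 1.

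Hoxc13 and Lef1, which control hair keratin genes, had groups that overlapped. Hoxc13 had log2 signals of 3.42 and 3.35 on the vehicle arrays against 3.16 and 3.74 under TCQA, so that both control arrays lay between the TCQA arrays. Lef1 had 1.31 and 2.07 on the vehicle arrays against 1.68 and 2.36 under TCQA, with Control 2 between the TCQA arrays. On Control 1 and TCQA 1, Lef1 was below the nonspecific control probe set with 17 G or C bases, which had 1.34 and 1.77 there. The log2 fold change was 0.06 ± 0.37 for Hoxc13 (SE; limma, adjusted p = 0.98) and 0.33 ± 0.47 for Lef1 (SE; limma, adjusted p = 0.92). Without Control 1 it was 0.10 for Hoxc13 and -0.05 for Lef1, and for Lef1 neither value exceeded the SD within the control (0.54) or within TCQA (0.48).

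Gata3 and Vdr had lower means with TCQA, with 1 vehicle array far above the rest. Gata3, which specifies the inner root sheath and is also made by T cells, had log2 signals of 6.15 and 1.79 on the vehicle arrays against 2.06 and 1.79 under TCQA. Vdr, the vitamin D receptor needed for the hair cycle to restart, had 5.88 and 3.36 on the vehicle arrays against 3.21 and 3.73 under TCQA. In both genes Control 1 stood more than 2 log2 units above the other arrays, while Control 2 fell inside the TCQA range. The log2 fold change was -2.04 ± 1.49 for Gata3 (SE; limma, adjusted p = 0.92) and -1.15 ± 0.92 for Vdr (SE; limma, adjusted p = 0.92). Without Control 1 they were 0.13 and 0.11. On TCQA 2, Gata3 was below the nonspecific control probe set with 17 G or C bases, which had 2.08 there. A second Vdr probe set lay between 2.04 and 2.35 on all 4 arrays, at a difference of 0.15, or 0.04 without Control 1, so that the 2 probe sets disagreed on Control 1.

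The other 4 factors of this group differed between the groups by less than the larger SD within a group. Hr, the hairless corepressor that partners Vdr, had log2 signals of 3.23 and 3.79 on the vehicle arrays against 3.74 and 3.76 under TCQA, giving 0.24, or -0.04 once Control 1 was set aside. Sox21, a factor of the hair shaft cuticle, lay between 3.73 and 4.13 on the 4 arrays, and its difference of -0.12 was 0.05 without Control 1. Ovol1, a repressor in differentiating epidermal and follicle cells, lay between 1.78 and 2.35, and its difference of 0.08 was -0.21 without Control 1. On TCQA 2, Ovol1 was below the nonspecific control probe set with 17 G or C bases. Cux1 was measured by 7 probe sets whose log2 fold changes ran from -0.42 to 0.98, 4 of them negative, and its brightest one had 4.57 and 3.90 on the vehicle arrays against 3.82 and 4.05 under TCQA, at a difference of -0.31, or 0.03 without Control 1.

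The 6 bulge genes had a median log2 signal of 4.79 and 2.94 on the vehicle arrays against 2.88 and 3.01 under TCQA. Cd34, a surface protein of bulge stem cells that is also found on blood vessels and on adipocyte precursors, had log2 signals of 5.98 and 1.85 on the vehicle arrays against 1.66 and 2.06 under TCQA. Control 2 lay between the TCQA arrays. It averaged 1.86 ± 0.29 under TCQA and 3.91 ± 2.91 under vehicle (SD, n = 2 each), for a difference of -2.05 ± 1.42 (SE; limma, adjusted p = 0.92), and without Control 1 the difference was 0.01 (standard error 0.32). On both TCQA arrays Cd34 was below the nonspecific control probe set with 17 G or C bases, which had 1.77 and 2.08 there. Lhx2, a homeobox factor of bulge stem cells, had 5.10 and 2.80 on the vehicle arrays against 2.80 and 2.87 under TCQA. Tbx1, a factor that keeps bulge stem cells renewing and that skeletal muscle also uses, had 5.08 and 1.88 on the vehicle arrays against 1.88 and 2.06 under TCQA. For all 3 of these genes the other arrays spanned 0.41 log2 units or less, and Control 1 was 2.24 to 3.91 above the highest of them. Tbx1 was below that nonspecific control on TCQA 2. The log2 fold changes of Lhx2 and Tbx1 were -1.12 and -1.51 with all arrays and 0.03 and 0.09 without Control 1.

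The other bulge genes spanned less than 1 log2 unit over all arrays with their brightest probe sets, Control 1 included. Lgr5, a Wnt-linked receptor of cycling stem cells, had log2 signals of 4.51 and 4.39 on the vehicle arrays against 4.34 and 4.002 under TCQA. Both TCQA arrays were below both control arrays, and the log2 fold change was -0.28 ± 0.34 (SE; limma, adjusted p = 0.92) and -0.21 without Control 1. A dimmer Lgr5 probe set had 1.64 and 2.25 on the vehicle arrays against 2.45 and 1.94 under TCQA, at a difference of 0.25, or -0.06 without Control 1. Sox9, which marks the outer root sheath and bulge, had 3.14 and 3.08 on the vehicle arrays against 2.96 and 3.15 under TCQA, for a difference of -0.05, or -0.02 without Control 1. Its other 2 probe sets had -0.41 and 0.25, or 0.05 and 0.21 without Control 1. Nfatc1, which keeps bulge cells at rest, lay between 3.32 and 3.67 with its brightest probe set, at a difference of 0.05, or 0.09 without Control 1, while 1 of its other 4 had 4.14 on Control 1 and 2.18 to 2.62 elsewhere, at -1.06, or -0.30 without it. The probe sets of Sox9 and Nfatc1 differed in sign with and without Control 1.

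In the Hedgehog pathway, the ligand Shh had groups that did not overlap. It had log2 signals of 0.96 and 1.15 on the vehicle arrays against 1.36 and 1.95 under TCQA, which put both TCQA arrays above both control arrays. The log2 fold change was 0.60 ± 0.38 (SE; limma, adjusted p = 0.92) and 0.51 without Control 1. That nonspecific control probe set had 1.34 and 1.61 on the vehicle arrays against 1.77 and 2.08 under TCQA, and Shh was below it on all 4 arrays. Probe brightness depends on sequence, so this control is a guide and not a detection limit.

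The receptors and Gli factors of the pathway differed in direction. Ptch1, the Hedgehog receptor and itself a target of the pathway, had log2 signals of 2.81 and 3.26 on the vehicle arrays against 3.04 and 2.75 under TCQA. Gli1, the target most used as a readout of Hedgehog signaling, had 1.91 and 2.30 on the vehicle arrays against 2.37 and 2.16 under TCQA. The groups overlapped in both genes, with log2 fold changes of -0.14 ± 0.37 for Ptch1 (SE; limma, adjusted p = 0.95) and 0.16 ± 0.35 for Gli1 (SE; limma, adjusted p = 0.94). Without Control 1 they were -0.36 for Ptch1 and -0.04 for Gli1, whose sign turned. A dimmer Ptch1 probe set had 4.08 on Control 1 and 1.49 to 1.71 on the other 3 arrays, at a difference of -1.39, or -0.21 without Control 1. Gli2, the main activator among the Gli factors in skin, had 2.40 and 3.09 on the vehicle arrays against 3.29 and 3.50 under TCQA, giving 0.65, or 0.31 once Control 1 was set aside. Its second probe set did not keep that order, with 3.16 and 2.76 on the vehicle arrays against 2.48 and 3.71 under TCQA, at a difference of 0.14, or 0.33 without Control 1. Smo, the signal transducer, had 3.996 and 3.96 on the vehicle arrays against 3.67 and 3.65 under TCQA. This was the member with the smallest spread within both groups, 3.98 ± 0.03 (SD, n = 2) against 3.66 ± 0.01 (SD, n = 2), and its log2 fold change of -0.31 ± 0.32 (SE; limma, adjusted p = 0.92) was -0.29 without Control 1. The other Smo probe set had 5.13 and 3.51 on the vehicle arrays against 3.57 and 2.53 under TCQA, where Control 2 lay between the TCQA arrays and the difference was -1.27, or -0.46 without Control 1.

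Of the 4 BMP members, Bmpr1a had both TCQA arrays above both control arrays, and the groups overlapped for Bmp2, Bmp4 and Nog. Bmp4, made by the dermal papilla and fibroblasts, had log2 signals of 4.23 and 3.07 on the vehicle arrays against 2.96 and 3.68 under TCQA. Bmp2, a ligand that holds bulge cells at rest, had 3.49 and 2.09 on the vehicle arrays against 1.99 and 2.32 under TCQA. Control 2 lay between the TCQA arrays in both genes. Their log2 fold changes were -0.33 and -0.63 with all arrays and 0.25 and 0.07 without Control 1. Nog, the BMP antagonist that helps follicles enter growth, had 1.91 and 2.18 on the vehicle arrays against 2.40 and 2.08 under TCQA. Its difference was 0.19 ± 0.35 (SE; limma, adjusted p = 0.93) and 0.06 without Control 1. On TCQA 2, Nog was just below the nonspecific control with 17 G or C bases. Bmpr1a, a BMP receptor needed for shaft differentiation, had 1.38 and 1.59 on the vehicle arrays against 1.61 and 2.03 under TCQA. Its difference was 0.33 ± 0.35 (SE; limma, adjusted p = 0.92), or 0.23 without Control 1. Its lower TCQA array lay close above Control 2, and on Control 2, TCQA 1 and TCQA 2 it was below the nonspecific control with 17 G or C bases.

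Of the FGF ligands, none had groups that did not overlap. Fgf2, a growth factor of dermal cells and melanocytes, had log2 signals of 1.25 and 1.503 on the vehicle arrays against 1.36 and 1.83 under TCQA, below the nonspecific control on every array. It averaged 1.60 ± 0.33 under TCQA and 1.38 ± 0.18 under vehicle (SD, n = 2 each), and its log2 fold change was 0.22 ± 0.36 (SE; limma, adjusted p = 0.93) and 0.10 without Control 1. Fgf5, the signal that ends growth, had 2.46 and 3.66 on the vehicle arrays against 3.71 and 3.29 under TCQA. Its 2 probe sets differed by 0.44 and 0.23, which were -0.16 and -0.24 without Control 1. Fgf7, a dermal papilla factor that promotes growth, had 2.46 and 3.21 on the vehicle arrays against 3.21 and 3.38 under TCQA. Fgf18, which bulge cells and the inner bulge layer make at rest, had 4.07 and 2.67 on the vehicle arrays against 3.02 and 2.68 under TCQA. Control 1 was thus low for Fgf5 and Fgf7 and high for Fgf18. The difference was 0.46 for Fgf7 and -0.52 for Fgf18 with all arrays, and 0.08 and 0.18 without Control 1.

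Edar and Eda of the ectodysplasin pathway differed in the order of Control 2. Edar, the receptor, had log2 signals of 3.30 and 4.05 on the vehicle arrays against 4.16 and 4.496 under TCQA, for a difference of 0.65 ± 0.42 (SE; limma, adjusted p = 0.92) that was 0.28 without Control 1. A dimmer Edar probe set lay between 0.89 and 1.25 on all arrays and had a difference of 0.12, or -0.06 without Control 1. Eda, the ligand, had 2.64 and 4.06 on the vehicle arrays against 3.83 and 3.60 under TCQA. The log2 fold changes of its 5 probe sets lay between 0.14 and 0.36 with all arrays, and between -0.35 and -0.14 without Control 1, so that every Eda probe set changed sign with that array.

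The shaft proteins and enzymes differed in how the arrays were ordered. Padi3, which converts arginine to citrulline in shaft and sheath proteins, had log2 signals of 2.49 and 3.46 on the vehicle arrays against 3.64 and 3.76 under TCQA. S100a3, a calcium-binding protein of the hair cuticle and a substrate of that enzyme, had 1.75 and 2.24 on the vehicle arrays against 2.43 and 1.91 under TCQA. On TCQA 2, S100a3 was below the nonspecific control with 17 G or C bases. The 2 arrays with TCQA were both above the control for Padi3, at a difference of 0.73 ± 0.45 (SE; limma, adjusted p = 0.92) and 0.25 without Control 1, while the groups overlapped for S100a3, whose difference of 0.18 was -0.07 without Control 1. Selenbp1, a selenium-binding protein, had 5.26 and 1.73 on the vehicle arrays against 1.61 and 1.87 under TCQA, and its log2 fold change of -1.75 ± 1.22 (SE; limma, adjusted p = 0.92) was 0.01 without Control 1. Like Cd34, it was below the nonspecific control on both TCQA arrays. Selenbp1 is also made in liver, and 6 liver genes, markers of another tissue, had a median of 7.28 on Control 1, with 2.14 to 3.0 elsewhere. Their part in the Selenbp1 value was not tested.

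Promoter letters are shown for Edar and S100a3 because, of 25 genes with an entry, these alone hold the LEF/TCF motif CTTTGAT that Lef1 and β-catenin use. The sequences are from RefSeq (GRCm38.p6), within 250 bases before the gene's start, with the motif in capitals.
Edar, chr10:58675898-58675946, minus strand: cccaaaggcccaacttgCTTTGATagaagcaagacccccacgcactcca
S100a3, chr3:90600050-90600106, plus strand, 1 of 4 listed starts: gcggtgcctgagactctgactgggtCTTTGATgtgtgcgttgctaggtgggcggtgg
Among 32851 promoters of 300 bases, 3.73% hold CTTTGAT on either strand, and 2 of the 33 member promoters do. The variant CTTTGAA is held by 5.14% of all promoters and the GLI motif TGGGTGGTC by 0.253%, and neither is found in the member promoters. The match is a description of these letters. The Edar and S100a3 signals did not share a pattern across the arrays, since TCQA 2 was the highest array for Edar and the lowest but Control 1 for S100a3.

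Over the 36 genes, 21 differed upward and 15 downward, or 58.3% positive, where 56.2% of all genes were. The balance was 18 positive and 18 negative after subtracting each array's median and 25 and 11 after a further quantile normalization. The median was 0.12, beside 0.08 over all genes, and the mean was -0.09. Without Control 1, 25 genes were positive and 11 negative, or 69.4% positive, where 45.3% of all genes were, with a median of 0.08 beside -0.03 over all genes. The sign changed for 18 of the 36 genes, or 50%, when Control 1 was left out, where it changed for 40.6% of all genes. The values without Control 1 ran from -0.36 (Ptch1) to 0.64 (Foxn1), against -2.05 (Cd34) to 1.08 (Foxn1) with all arrays. None of the 36 had an unadjusted p under 0.05 in limma without Control 1, where 1.2% of all genes did. When 1 array is left out, the lone array left in its group borrows the spread of the other group.

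**Figure D3:**
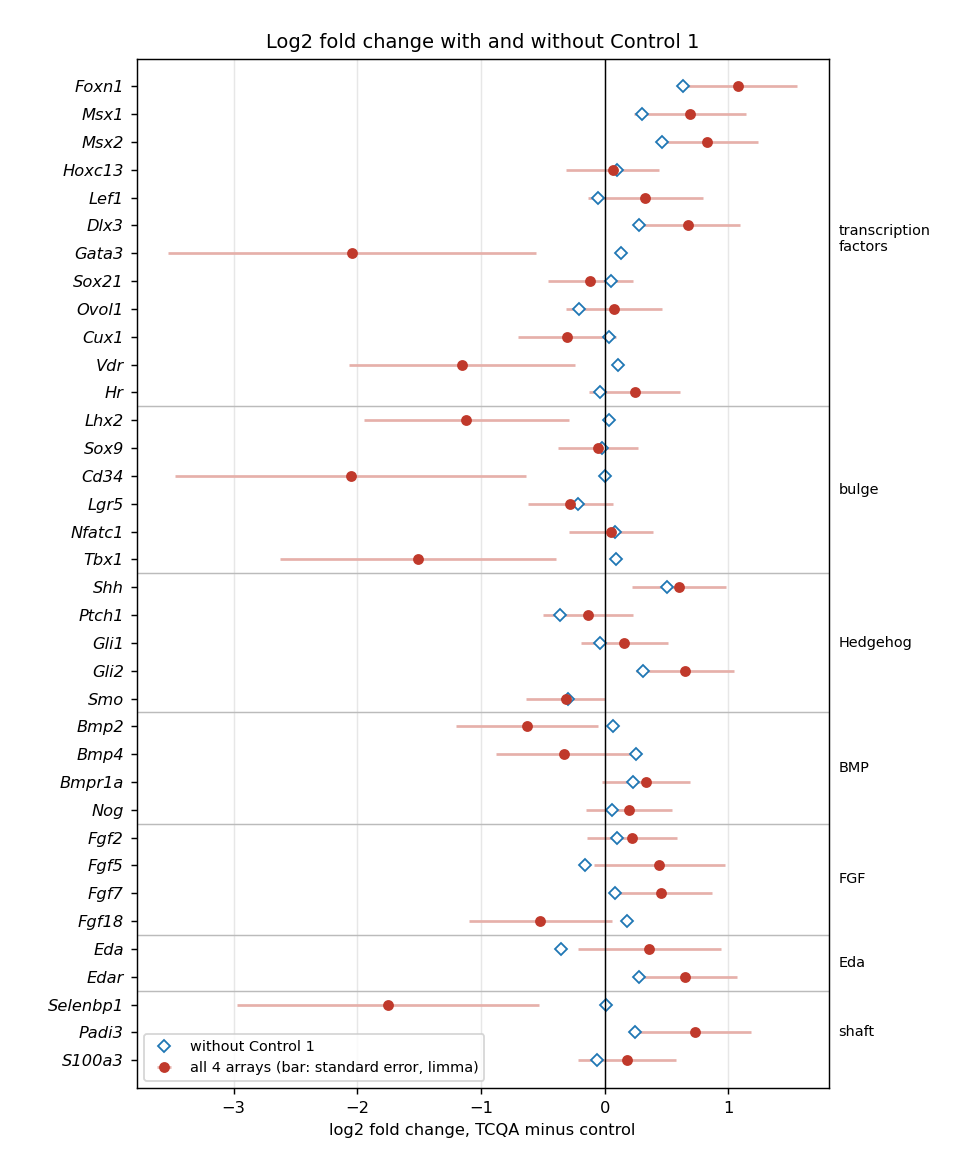
Log2 fold change (TCQA minus control, x axis) of the 36 genes with all 4 arrays (circles, bars are limma standard errors) and without Control 1 (open diamonds). With all arrays the values run from -2.05 to 1.08, and without Control 1 they run from -0.36 to 0.64 and the long negative bars of Gata3, Cd34, Selenbp1, Tbx1, Vdr and Lhx2 have no counterpart.

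Control 1 stood 1 log2 unit or more above all other arrays for 8 of the 36 genes, or 22.2%, where 19.9% of all genes did. The 8 were Gata3, Vdr, Lhx2, Cd34, Tbx1, Bmp2, Fgf18 and Selenbp1, with log2 signals of 3.49 to 6.15 on Control 1 and 1.61 to 3.73 on the others. Their log2 fold changes ran from -2.05 to -0.52 with all arrays, and from 0.01 to 0.18 without Control 1. No member was 1 unit or more below the others, where 7.42% of all genes were. Control 1 was the lowest array for 19 members, or 52.8%, where it was for 53.6% of all genes, and the highest for 13, or 36.1%, where it was for 33.9%. The shares of high and low members on Control 1 were thus near those of the whole array.

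Among Control 2, TCQA 1 and TCQA 2, the members spanned 0.05 to 0.94 log2 units, with a median span of 0.38 beside 0.41 over all genes. The median distance between members on TCQA 1 and TCQA 2 was 0.32, and between Control 2 and TCQA 1 it was 0.15. Over all genes these distances were 0.28 and 0.19. For the members and for all genes, TCQA 1 thus lay nearer to Control 2 than to the other TCQA array. Both TCQA arrays were above Control 2 for 10 genes, or 27.8%, where 26.3% of all genes were, and below it for 6, or 16.7%, where 34.9% were. The 10 were the 9 named above with Fgf18, and the 6 were Ovol1, Hr, Lgr5, Ptch1, Smo and Eda. The difference from Control 2 was larger than the distance between the TCQA arrays for 9 genes, or 25%, where it was for 37.7% of all genes. They were Foxn1, Msx2, Dlx3, Gli2 and Padi3 on the higher side and Hr, Ptch1, Smo and Eda on the lower side. The first 5 had values of 0.64, 0.46, 0.28, 0.31 and 0.25 without Control 1.

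The 36 genes were measured by 64 probe sets, 16 of the genes by more than 1. For 5 of those 16 (Cux1, Lgr5, Nfatc1, Sox9 and Vdr) the probe sets differed in the sign of the log2 fold change, and for 4 (Cux1, Edar, Nfatc1 and Sox9) they did so without Control 1. For Foxn1, Msx1, Msx2, Dlx3 and Gli2 every probe set was positive with and without Control 1, and for Ptch1 and Smo every one was negative. The choice of the brightest probe set did not depend on Control 1 for any of the 36 genes.

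**Figure D4:**
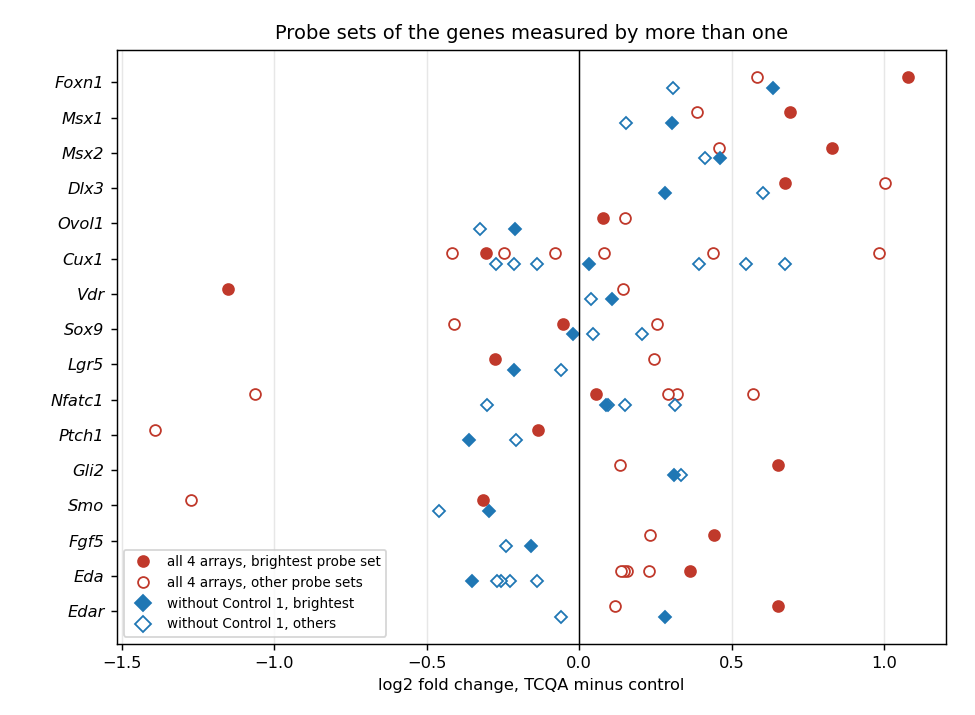
Log2 fold change (TCQA minus control, x axis) of each probe set of the 16 genes measured by more than 1, with all arrays (circles) and without Control 1 (diamonds), filled for the brightest probe set. All probe sets of Foxn1, Msx1, Msx2, Dlx3 and Gli2 are on the positive side, those of Eda change side without Control 1, and those of Cux1 spread from -0.42 to 0.98.

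Other genes of the same pathwayswere listed by function, and none of them passed the test in either direction. Of 18 measured Hedgehog genes, 11 were positive and 7 negative, with a median log2 fold change of 0.21, against -0.08 without Control 1. The largest differences were -1.90 for Spop, which marks Gli proteins for degradation, and -0.83 for Gpr161 and -0.75 for the co-receptor Cdon, which were -0.06, -0.25 and -0.31 without Control 1. Of 25 BMP genes, 10 were positive and 15 negative (median -0.32, and 0.01 without Control 1). Sostdc1, a BMP and Wnt antagonist of the follicle, had log2 signals of 6.44 and 3.22 on the vehicle arrays against 2.84 and 2.46 under TCQA, and both TCQA arrays were below Control 2. Its log2 fold change was -2.18, beside -1.98 for the BMP transducer Smad1 and -1.81 for the receptor Bmpr2, and without Control 1 the 3 had -0.57, -0.02 and 0.08. Control 1 stood 1 unit or more above the others for 11 of the 25, where it did for 19.9% of all genes.

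Of 22 FGF genes, 11 were positive and 11 negative, with a median of -0.01 and of 0.02 without Control 1. The receptors Fgfr3 and Fgfr2 and the intracellular factor Fgf13 had the largest differences, at -1.60, -1.03 and -1.21, and 0.34, -0.37 and 0.27 without Control 1. Of 15 ectodysplasin and NF-κB genes, 6 were positive and 9 negative (median -0.05, and -0.12 without Control 1). The largest were -2.25 for the NF-κB inhibitor Nfkbia, -1.31 for Tab2 and -1.22 for the Eda-related receptor Tnfrsf19. Without Control 1 these were -0.30, -0.23 and -0.12.

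A second list of 16 bulge and stem cell genes resembled the bulge members on Control 1, with a median log2 signal of 4.45 there and between 2.69 and 3.07 on the other arrays. Of the 16, 4 were positive and 12 negative, with a median log2 fold change of -0.57, against -0.05 without Control 1. Krt15, the bulge keratin, had log2 signals of 9.46 and 1.63 on the vehicle arrays against 1.82 and 1.86 under TCQA. Col17a1, which anchors stem cells to the basement membrane and is made by basal epidermis too, had 8.998 on Control 1 and 1.80 to 1.95 elsewhere. Postn, a matrix protein of fibroblasts, had 8.16 on Control 1 and 2.83 to 3.14 elsewhere. Their log2 fold changes were -3.70, -3.62 and -2.69, and 0.21, -0.09 and -0.18 without Control 1. Control 1 was also the highest array for 6 of 6 keratinocyte and 8 of 8 muscle markers, and the part of those tissues in the values was not tested.

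Among the genes of hair shaft and inner root sheath structure, on which Foxn1, Hoxc13 and Gata3 act, most differences were positive and none passed the test. Of 22 measured, 20 were positive and 2 negative, where 56.2% of all genes were positive, with a median log2 fold change of 0.42 and of 0.18 without Control 1, where all genes had 0.08 and -0.03. The median log2 signal was 2.13 and 2.58 on the vehicle arrays against 2.85 and 2.71 under TCQA. The nonspecific control with 17 G or C bases was also higher under TCQA, with 1.34 and 1.61 on the vehicle arrays against 1.77 and 2.08. The part of this background in the differences was not tested. Both TCQA arrays were above both control arrays for 7 of the 22, where they were for 16% of all genes, and among the 7 was Krt83, a hair keratin, with 2.03 and 2.34 on the vehicle arrays against 2.92 and 3.07 under TCQA (log2 fold change 0.81 ± 0.34, SE, adjusted p = 0.92 from limma, and 0.66 without Control 1). Tgm3, the enzyme that crosslinks sheath and shaft proteins, had 2.51 and 3.88 on the vehicle arrays against 3.82 and 5.10 under TCQA, with Control 2 between the TCQA arrays and a difference of 1.27, or 0.58 without Control 1. Mt4, a metallothionein of stratified epithelia, had 5.26 on Control 1 and 1.91 to 2.18 on the others, and its difference was -1.46, or 0.22 without Control 1. Of 14 other follicle transcription factors, 9 were positive and 5 negative (median 0.19, and 0.11 without Control 1), and the largest differences were -2.14 for Ets2, -1.26 for Klf5 and -0.93 for Grhl1, which without Control 1 were 0.22, -0.63 and 0.15.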

How the data were processed

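Groups were taken from the sample titles, 2 arrays each. Per the labels, the authors worked with RMA, Transcriptome Analysis Console and Affymetrix Expression Console and deposited 1 log2 signal per probe set and array. RMA corrects background, normalizes probes and summarises them. Whether the arrays were normalized together is not given in the sources used here. Of 45141 probe sets, 104 Affymetrix controls were left out of tests. Gene names come from the platform annotation (28898 probe sets name 1 gene, 551 name several and 15588 are not listed). Each gene took the probe set with the highest mean over the 4 arrays.

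The deposited log2 values of both groups were fitted in limma 3.58.1 (R 4.3.3) (two-sided, Benjamini-Hochberg over 45037 probe sets, 2 residual degrees of freedom), without a filter or second normalization, tested on simulated data. Fold changes are TCQA minus control. The members, lists and tests were chosen with earlier results of these data known. Values on every array are given for the members of each role that define it, for members whose groups do not overlap and for members at least 1 log2 unit apart on Control 1, and up to 3 genes with the largest differences per list. Arrays carry no read depth, and their number limits the precision. Alternatives were another normalization, centring, a filter on dim probe sets, other variance models, a replicate block, other choices of probe set and leaving out each array. Marker lists of fibroblasts, adipocytes, melanocytes, endothelium and leukocytes were measured beside those named above.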

Additional observations from a re-analysis of the deposited data

How the results depend on the processing

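No member passed the test under a further quantile normalization, centring, the filter on dim probe sets, trend and robust options, an analysis of variance, other choices of probe set or the replicate block. Leaving out Control 2 changed this. With each array left out in turn, members past the test numbered 0 to 11, members at the study's thresholds 0 to 16, and probe sets past the test 0 to 10538, each highest without Control 2 (Foxn1, Msx2 and Padi3 higher, and Gata3, Vdr, Lhx2, Cd34, Tbx1, Bmp2, Fgf18 and Selenbp1 lower). Members with both TCQA arrays above the control numbered 10 to 19 and below it 5 to 13, and the members' median log2 fold change ran from 0.037 to 0.34. Without Control 1, both TCQA arrays lay above Control 2 for 26.3% of all genes and below it for 34.9%. With any other array left out, the share of all genes in either order was not counted. Nor was the share of all genes at the study's thresholds counted with an array left out. The counts without such a share do not set the members apart from all genes. After quantile normalization 0 members lay below both control arrays, since Smo and Lgr5 no longer did. Without dim probe sets, which removes 9 members, the median was -0.053, and 7 members had both TCQA arrays above both control arrays. For these 2 alternatives too, the share of all genes in either order was not counted.

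Single members changed sign after quantile normalization (Sox21 0.27, Ovol1 -0.054, Cux1 0.17, Sox9 0.018, Lgr5 0.18, Bmp4 0.016), after subtracting array medians (Hoxc13 -0.025, Ovol1 -0.011, Nfatc1 -0.035) and with a gene's probe sets averaged (Cux1 0.065). Probe sets with an _a, _s or _x suffix were left out in 1 alternative. The suffixes mark probes shared by several transcripts of a gene (_a) or matching other genes (_s, _x). Lef1, Tbx1 and Fgf2, each measured by an _a probe set alone, then have no value. Gli2 and Msx1, whose brightest probe sets carry _s, then had differences of 0.14 and 0.39. Both TCQA arrays then lay above both control arrays for 8 of the 33 members with a value. The share of all genes in that order was not counted under this alternative, so the count does not set the members apart. The array's number as a replicate block gave 0 members and 0 probe sets past the test and changed no call. The numbers were not taken as pairs, since the labels tie no arrays together and same-numbered arrays did not deviate together (r = -0.124 over 45037 probe sets). The crossed pairing, chosen after seeing the data, also gave 0 probe sets and 0 members.

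With each array left out in turn, the log2 fold change changed sign for 23 members and ran for Hoxc13 from -0.23 to 0.35, Lef1 from -0.054 to 0.71, Gata3 from -4.22 to 0.13, Sox21 from -0.28 to 0.048, Ovol1 from -0.21 to 0.37, Cux1 from -0.64 to 0.031, Vdr from -2.41 to 0.11, Hr from -0.039 to 0.52, Lhx2 from -2.27 to 0.034, Sox9 from -0.15 to 0.040, Cd34 from -4.12 to 0.0061, Nfatc1 from -0.12 to 0.23, Tbx1 from -3.11 to 0.093, Ptch1 from -0.36 to 0.090, Gli1 from -0.039 to 0.36, Bmp2 from -1.33 to 0.070, Bmp4 from -0.91 to 0.25, Fgf2 from -0.013 to 0.46, Fgf5 from -0.16 to 1.04, Fgf18 from -1.22 to 0.18, Eda from -0.35 to 1.07, Selenbp1 from -3.52 to 0.0082 and S100a3 from -0.081 to 0.44. The share of all genes that changed sign under any of these omissions was not counted. The 23 therefore do not set the members apart from all genes.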

Other observations

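Genes of the dermal papilla, the fibroblast cluster that instructs the follicle, had a median log2 signal over 13 measured genes of 1.89 and 2.33 on the vehicle arrays against 2.23 and 2.35 under TCQA. Of the 13, 10 differed upward and 3 downward, none past the test in limma, and the median difference was 0.27, or 0.22 without Control 1. These medians lay near the nonspecific control with 17 G or C bases, which had 1.34 and 1.61 on the vehicle arrays against 1.77 and 2.08 under TCQA. Its part in the differences was not tested. Rspo2, a Wnt amplifier linked to hair growth, had log2 signals of 2.32 and 3.82 on the vehicle arrays against 3.80 and 4.31 under TCQA, at a difference of 0.98, or 0.23 once Control 1 was set aside. Rspo1 had 0.68 and 0.37, and Trps1, a repressor active in hair follicles, had -0.71 and -0.49 with and without Control 1.

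Of 9 measured proliferation genes, 3 were positive and 6 negative, with a median log2 fold change of -0.06 and of -0.14 without Control 1, and none passed the test. Pcna, the sliding clamp of DNA replication, had log2 signals of 6.64 and 2.59 on the vehicle arrays against 2.45 and 2.33 under TCQA. Mki67, a marker of dividing cells, had 3.99 and 2.65 on the vehicle arrays against 2.58 and 2.02 under TCQA. Mcm5, a replication helicase subunit, ran the other way, with 1.60 and 2.12 on the vehicle arrays against 2.50 and 2.81 under TCQA. The differences were -2.22 for Pcna, -1.02 for Mki67 and 0.79 for Mcm5, or -0.20, -0.35 and 0.53 without Control 1.

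The median log2 signal on Control 1 was 4.34 for 6 dermal fibroblast markers and 6.85 for 4 measured adipocyte markers, against 2.43 to 2.49 and 2.49 to 2.76 on the other arrays. For 6 melanocyte markers it was 2.09 on Control 1 and 2.72 to 2.93 on the others, for 4 endothelial markers 2.52 against 2.12 to 2.49, and for 6 leukocyte markers 2.48 against 2.27 to 2.66.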
